A study of Homo sapiens with 16 samples.

Results

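LAN-1 cells kept for 5 days with GSK126, a small-molecule inhibitor of the histone methyltransferase EZH2, were compared with LAN-1 cells kept for 5 days with its solvent control DMSO. The comparison used the libraries whose labels give this line, agent and time: 2 with DMSO and 2 with GSK126 at 2 µM, which are 4 of the 16 libraries of the series. The other 12 libraries held LAN-1 at day 2 and a further neuroblastoma line, Kelly, at days 2 and 5, each with the same agents in duplicate. Both lines carry amplified MYCN, per the title of the series. The labels do not say that the duplicates were separate cultures, so every p-value below measures only the spread between these samples, which may be technical. RNA was sequenced and counted per gene, and all 11863 genes that passed the filter on low counts were tested together.

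EZH2 is the catalytic subunit of Polycomb repressive complex 2 (PRC2), which methylates lysine 27 of histone H3 and so marks silent developmental genes. The mark is lost slowly, because it is diluted as cells divide once the enzyme is blocked. In neuroblastoma, a tumour of the sympathetic lineage, EZH2 is known for holding down genes of neuronal differentiation, and the tumour cells can hold an adrenergic or a mesenchymal identity.

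The 4 libraries held 1455547 and 1220297 counts with DMSO and 1453729 and 912095 counts with GSK126, the last being the smallest of the 16 (range 912095 to 1666190). The variance between duplicates was 1.24 times that of counting alone for DMSO and 2.04 times for GSK126. GSK126 replicate 2 stood apart along the GC content of genes. Across 7868 genes with a mean of at least 20 CPM (counts per 1000000 counts of the scaled library total), the log2 ratio to DMSO rose from a median of -0.33 in the fifth of genes with the lowest GC content to 0.25 in the highest, against -0.12 to 0.06 for GSK126 replicate 1. The correlation of the ratio with GC content across genes, which are not independent replicates, was 0.571 for replicate 2 and 0.238 for replicate 1, and 0.0798 between the DMSO duplicates. The part of this slope in the calls below was not tested by an independent measurement, so results are given with the libraries that decide them, and list counts also from a fit whose offsets remove the slope in each library (called GC offsets below). A named gene whose call was lost with GC offsets has that value beside it.

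**Figure D1:**
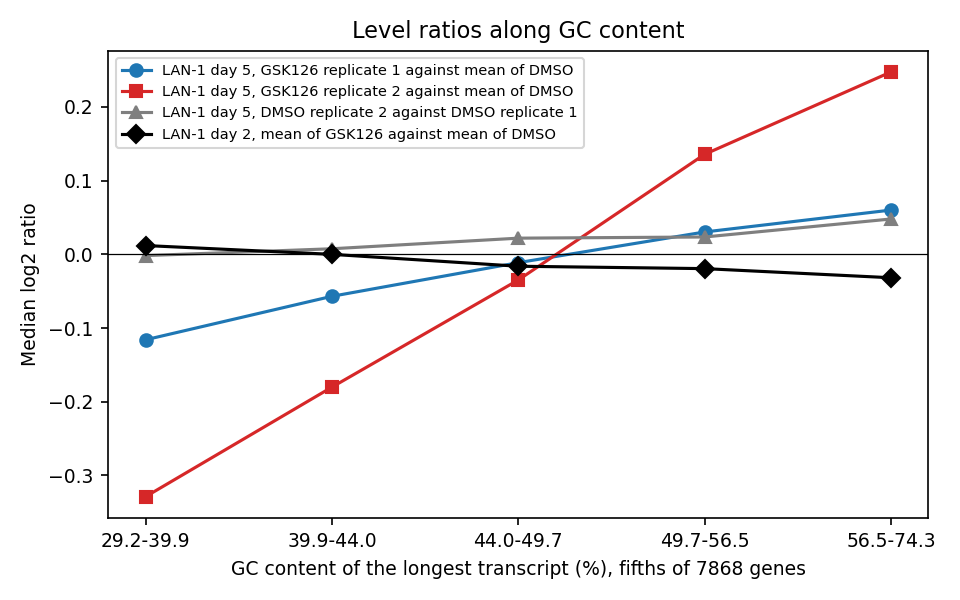
Median log2 ratio (vertical axis) of genes in 5 equal classes of GC content (horizontal axis, percent of the longest transcript, 7868 genes), with 1 line per ratio. GSK126 replicate 2 runs from -0.33 to 0.25, while GSK126 replicate 1 runs from -0.12 to 0.06.

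The tissue was checked against markers, which cannot tell LAN-1 from Kelly. All 14 adrenergic neuroblastoma markers had reads, and their summed level was 5280 and 5363 CPM with DMSO and 5302 and 5955 CPM with GSK126. TH and DBH, the enzymes of catecholamine synthesis that define noradrenergic cells, were nearly absent, at 4.90 CPM or less for TH and 2.10 CPM or less for DBH. The 8 mesenchymal markers summed to 1155 and 1023 CPM with DMSO and 1455 and 1313 CPM with GSK126, and CD44 had no read in 3 of the 4 libraries. The Schwann cell and glial markers summed to at most 8.81 CPM, and the haematopoietic, epithelial and endothelial markers to at most 2.10 CPM in any library. S100B, PTPRC and PECAM1 were at 0 in all 4. In bulk RNA, a change in the share of cells of a type and a change in RNA per cell cannot be told apart.

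With GSK126, 434 genes were called (3.66% of those tested), 291 of them higher (2.45%) and 143 lower (1.21%), by edgeR's quasi-likelihood test with Benjamini-Hochberg adjustment at 0.05. The genes that were higher had larger changes: 97 of them passed a log2 change of 1 in size, against 5 of the lower genes. The 2 groups did not overlap for 290 of the 291 higher and for all 143 lower genes, beside 22.6% and 21.5% of all tested genes that were apart in each direction. The calls depended on single libraries. Leaving out DMSO replicate 1 left 99 higher and 40 lower genes, and leaving out DMSO replicate 2 left 114 and 31. The fit that omits GSK126 replicate 1 called 373 and 362, and the fit that omits GSK126 replicate 2 called 133 and 20. Genes called higher had a median GC content of 54.1% and genes called lower 38.7%, beside 47.6% for all tested genes. With GC offsets 274 genes were higher (2.31%) and 84 lower (0.708%), and 204 of the 291 higher and 52 of the 143 lower genes were among them. Of all genes, 46 higher (0.388%) and 6 lower (0.0506%) kept their call whichever of the 4 libraries was left out. Of the 81 called genes named in the text, DESeq2 called 57, gave no adjusted p for 16 and did not call 8, which are ZNF300, CDC25A, PCNA, PSAT1, MTHFD2, ID1, SKIL and SREBF2 (adjusted p 0.0504 to 0.167). Below, 4 counts given for a list with 1 library left out stand in the order DMSO replicate 1, DMSO replicate 2, GSK126 replicate 1 and GSK126 replicate 2.

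The gene with the lowest adjusted p was AHNAK, which encodes a very large scaffold protein at the membrane and cytoskeleton (chr11:62201014-62323707 on GRCh37, minus strand). It stood at 345 CPM in both DMSO libraries and at 949 and 831 CPM with GSK126, a log2 fold change of 1.37 ± 0.09 (SE, n = 2 per group in every fold below, edgeR adjusted p = 8.55e-25). Each SE comes from the fit of all 16 libraries, with a spread shared over the 8 groups, not from the 4 libraries alone. Both GSK126 libraries lay far above both controls. PRUNE2 (chr9:79226292-79521030), which encodes a BCH domain protein, had 128 and 124 CPM with DMSO and 311 and 300 CPM with GSK126 (1.27 ± 0.12, adjusted p = 1.95e-15). KIF26B (chr1:245318287-245872734), a member of the kinesin family, had 56.4 and 45.4 against 129 and 147 CPM (1.41 ± 0.16, adjusted p = 1.59e-11). Each of these rises was also called in all 4 fits without 1 library.

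SFRP1, a secreted antagonist of Wnt ligands (chr8:41119481-41166992), had 335 and 417 CPM with DMSO and 695 and 737 CPM with GSK126 (0.93 ± 0.09, adjusted p = 5.35e-14). IGFBP5, a secreted binder of insulin-like growth factors, had 58.5 and 53.8 against 138 and 147 CPM (1.33 ± 0.15, adjusted p = 4.36e-11). SULF2, an extracellular enzyme that trims sulfate groups from heparan sulfate, had 134 and 146 against 292 and 280 CPM (1.03 ± 0.12, adjusted p = 1.49e-11). In all 3 the groups were apart and the GSK126 duplicates lay close together.

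Of the 45 tested genes of the Wnt, BMP and TGF-beta pathways, 3 were higher (6.67%, beside 2.45% of all tested genes) and 1 lower, with a median log2 change of 0.23 beside 0.00 over all tested genes. With 1 library left out 1, 3, 4 and 1 were higher, with GC offsets 4 and by DESeq2 1. The BMP target ID1 was higher (62.7 and 75.6 against 101 and 117 CPM), but not without DMSO replicate 1 (adjusted p = 0.233) or GSK126 replicate 2 (0.0999). SKIL, a repressor of SMAD proteins, was lower (237 and 234 against 193 and 140 CPM), with the call lost without DMSO replicate 1 (0.124), DMSO replicate 2 (0.0776) or GSK126 replicate 2 (0.369) and with GC offsets (0.255).

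**Figure D2:**
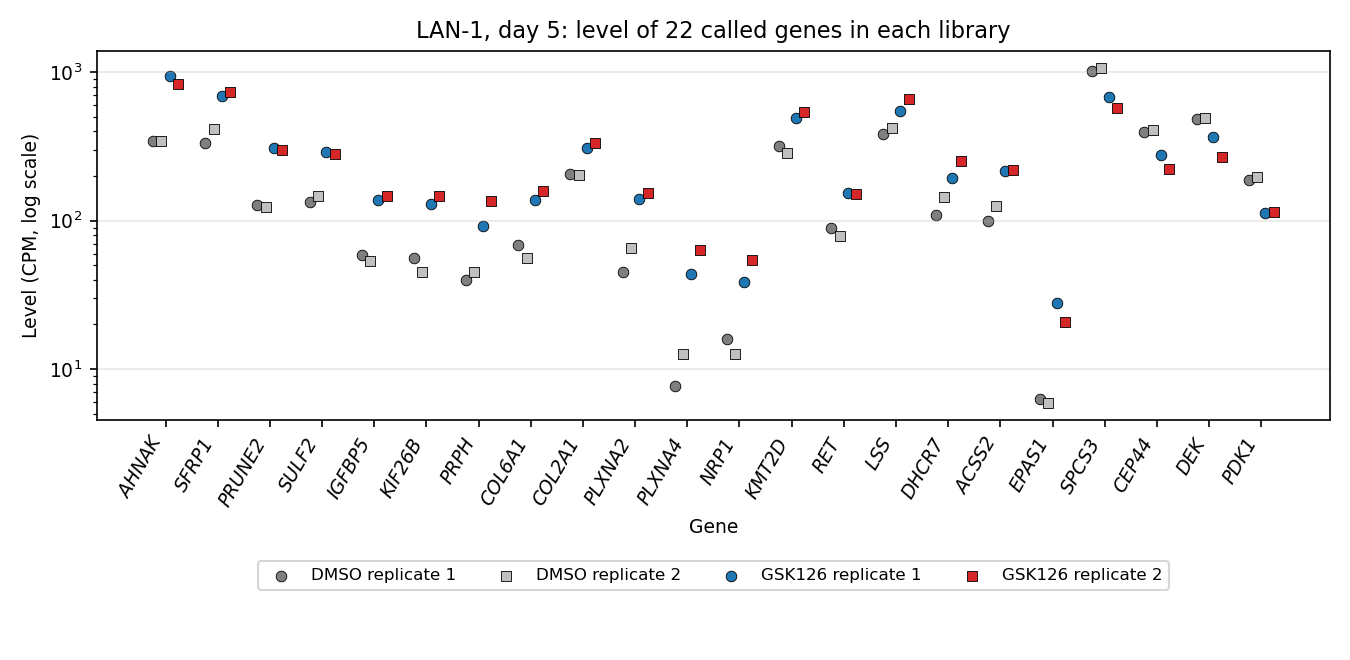
Level (CPM, log axis) of 22 called genes (horizontal axis) in each of the 4 libraries, with 1 point per library. The 18 genes from AHNAK to EPAS1 lie higher in both GSK126 libraries than in either DMSO library, and SPCS3, CEP44, DEK and PDK1 lie lower in both.

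Genes of axon guidance formed the list with the most genes called higher. Semaphorins, plexins, neuropilins, Slit and netrin receptors and their relatives steer growing axons. Of 53 listed genes, 48 passed the filter, 8 were higher (16.7%) and 0 lower, and the median log2 change was 0.37. Leaving out each library gave 5, 6, 9 and 7 higher genes, GC offsets gave 7 and DESeq2 6. The plexin receptors led. PLXNA4 had 7.66 and 12.6 CPM with DMSO and 44.1 and 63.9 CPM with GSK126 (2.38 ± 0.29, adjusted p = 3.90e-10). PLXNA2 had 45.3 and 65.5 against 139 and 154 CPM (1.41 ± 0.16, adjusted p = 1.79e-11). The co-receptor NRP1, which joins plexins to bind semaphorins, had 16.0 and 12.6 against 38.5 and 54.0 CPM (1.62 ± 0.27, adjusted p = 5.89e-06). For all 3 receptors the lowest GSK126 library was more than 2-fold above the highest DMSO library, and each call held without any 1 library. SLIT3, a secreted repellent, had 159 and 157 against 234 and 234 CPM (0.56 ± 0.12, adjusted p = 9.94e-04) and also kept its call in all 4 fits. The netrin receptor UNC5B (252 and 340 against 409 and 510 CPM, 0.63 ± 0.10, adjusted p = 9.15e-06) and the semaphorin SEMA5A (26.5 and 33.6 against 64.4 and 60.6 CPM, 1.08 ± 0.21, adjusted p = 2.68e-04) lost theirs without DMSO replicate 1 (0.0776 and 0.0644).

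Collagens, the fibrous proteins of the extracellular matrix, had the highest median of the lists with at least 10 tested genes. Of 40 listed, 18 passed the filter, 7 were higher (38.9%) and 1 was lower, with a median log2 change of 0.76, which is the same with genes at 0 counts set to their bound. A gene that passed only through libraries where it was high had to differ, so median and count are no measure of all 40. In a fit of the 4 libraries alone 10 passed and 5 were higher. The median GC content of the list was 60.9%. The fits without 1 library gave 3, 4, 6 and 4 higher genes, GC offsets gave 5 and DESeq2 2. COL6A1, a chain of the microfibril collagen VI (chr21:47401684-47424964), had 68.2 and 56.3 CPM with DMSO and 139 and 158 CPM with GSK126 (1.22 ± 0.16, adjusted p = 4.37e-09). COL12A1, a fibril-associated collagen, had 19.5 and 19.3 against 52.5 and 43.0 CPM (1.32 ± 0.25, adjusted p = 1.37e-04). COL2A1, the main fibril collagen of cartilage, had 206 and 203 against 307 and 333 CPM (0.64 ± 0.11, adjusted p = 1.33e-05). These 3 genes kept their calls in all 4 fits without 1 library. COL11A1 had 16.0 and 26.1 against 44.8 and 51.8 CPM (1.21 ± 0.25, adjusted p = 5.23e-04), with the call lost without DMSO replicate 1 (0.134). COL1A1, a chain of type I collagen and a mesenchymal marker, went from 0 counts to 4 and 5, at least 3.37-fold higher against a floor of 3 counts over the DMSO group (adjusted p = 0.0168). That call was lost without DMSO replicate 1 (0.196), DMSO replicate 2 (0.137) or GSK126 replicate 2 (0.151).

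Of the 17 tested mesenchymal identity genes 2 were higher (11.8%, beside 2.45% of all tested genes). Besides COL1A1, the called gene was fibronectin, FN1, with 787 and 593 against 974 and 834 CPM (0.39 ± 0.09, adjusted p = 0.00298). It was not called without DMSO replicate 2 (0.401) or GSK126 replicate 1 (0.0974). The median of that list was 0.22, and 1, 0, 1 and 1 of its genes were higher with 1 library left out. PRRX1, a transcription factor that defines the mesenchymal state, had 2.79 and 5.04 against 13.3 and 8.81 CPM and was not called (adjusted p = 0.0686, with GC offsets 0.0444).

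Sterol synthesis and uptake genes included 7 that were higher and none that was lower. Cells make cholesterol from acetyl-CoA through mevalonate, squalene and lanosterol, and the transcription factor SREBP2, encoded by SREBF2, switches the pathway on when membranes are short of sterol. The promoters of sterol genes bind SREBP2 at sterol regulatory elements together with the factor NF-Y at CCAAT boxes, so the 250 bases before the start of 4 called genes are printed here, from RefSeq on GRCh38.p14, 5′ to 3′ on the strand of the gene, with CCAAT on either strand (CCAAT or ATTGG) and the sterol element TCACNCCAC in capitals. The windows are chr21:46228775-46229024 for LSS, chr11:71448394-71448643 for DHCR7, chr16:88663092-88663341 for MVD (minus strand for all 3) and chr22:41832855-41833104 for SREBF2 (plus strand).
LSS: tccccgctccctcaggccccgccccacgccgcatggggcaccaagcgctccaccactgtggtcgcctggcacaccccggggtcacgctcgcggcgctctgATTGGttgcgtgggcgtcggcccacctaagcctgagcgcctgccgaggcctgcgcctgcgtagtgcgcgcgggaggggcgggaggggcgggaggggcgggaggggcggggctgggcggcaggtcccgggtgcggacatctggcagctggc
DHCR7: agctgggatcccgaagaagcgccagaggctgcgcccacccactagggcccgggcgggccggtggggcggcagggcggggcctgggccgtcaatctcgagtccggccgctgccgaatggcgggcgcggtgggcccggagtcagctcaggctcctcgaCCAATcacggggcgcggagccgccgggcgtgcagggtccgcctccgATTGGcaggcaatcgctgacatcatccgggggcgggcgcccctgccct
MVD: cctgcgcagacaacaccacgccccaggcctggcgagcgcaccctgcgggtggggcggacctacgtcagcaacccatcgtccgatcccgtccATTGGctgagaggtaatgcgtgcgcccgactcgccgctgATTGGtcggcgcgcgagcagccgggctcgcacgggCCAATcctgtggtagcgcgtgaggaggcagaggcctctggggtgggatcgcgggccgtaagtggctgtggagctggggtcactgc
SREBF2: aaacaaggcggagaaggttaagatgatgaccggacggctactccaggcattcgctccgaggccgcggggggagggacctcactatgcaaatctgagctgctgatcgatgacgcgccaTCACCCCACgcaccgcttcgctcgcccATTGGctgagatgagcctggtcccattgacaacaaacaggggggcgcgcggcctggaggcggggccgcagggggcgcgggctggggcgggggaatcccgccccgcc

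CCAAT on either strand stood in 17 of the 25 sterol gene windows in the table (68.0%), beside 35.7% of the 9548 tested genes with a window. The sterol element TCACNCCAC stood in 0.796% of the same windows and, among the sterol genes, only in that of SREBF2, as TCACCCCAC 133 bases before the start. SREBF2 was picked for printing outside the naming rule given below. The windows of EBP and MVK, which were also called higher, are not printed and hold CCAAT on either strand 3 and 5 times. A match of letters is not a binding site.

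Of 33 listed sterol genes, 31 passed the filter, 7 were higher (22.6%) and 0 lower, and the median log2 change was 0.28. LSS, which closes squalene epoxide to lanosterol, had 382 and 424 CPM with DMSO and 551 and 658 CPM with GSK126 (0.58 ± 0.09, adjusted p = 5.89e-06). DHCR7, which makes the last step to cholesterol, had 110 and 145 against 194 and 251 CPM (0.79 ± 0.13, adjusted p = 7.44e-06). Both kept their calls without any 1 library, although in both the second library of each group was the higher one. MVD, an enzyme of the mevalonate steps, had 48.1 and 63.9 against 79.7 and 136 CPM (0.90 ± 0.18, adjusted p = 4.82e-04), with the call lost without DMSO replicate 1 (0.115) or GSK126 replicate 2 (0.247). SREBF2 itself had 419 and 471 against 518 and 630 CPM (0.36 ± 0.10, adjusted p = 0.0143), with the call lost without DMSO replicate 1 (0.337) or GSK126 replicate 2 (0.370) and with GC offsets (0.0760). The count of called sterol genes moved with the library omitted: it was 2 when DMSO replicate 1 was omitted, 6 for DMSO replicate 2, 12 for GSK126 replicate 1 and 4 for GSK126 replicate 2. It was 12 with GC offsets and 4 by DESeq2.

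Of the early enzymes of the same pathway, some that were called at day 2 did not pass at day 5. HMGCS1, which makes the precursor of mevalonate, had 810 and 949 against 1058 and 941 CPM (0.19 ± 0.08, adjusted p = 0.211), its groups overlapped, and it passed with GC offsets (adjusted p = 7.27e-05). IDI1, an isomerase after mevalonate named here after its values were seen, had 175 and 205 against 179 and 176 CPM (-0.09 ± 0.12, adjusted p = 0.788). Both were called higher at day 2 (0.56 and 0.59, adjusted p = 1.14e-05 and 0.00239). The difference between the days passed for IDI1 (-0.68, adjusted p = 0.0228, lost without DMSO replicate 2 of day 5 at 0.271 and with GC offsets at 0.0513) and missed for HMGCS1 (adjusted p = 0.174).

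Fatty acid synthesis genes gave 6 higher (28.6%) and 1 lower of 21 tested, with a median of 0.13. With 1 library left out 2, 4, 5 and 2 were higher, with GC offsets 8, by DESeq2 6 and in a fit of the 4 libraries alone 2. ACSS2, which makes acetyl-CoA from acetate, had 100 and 125 CPM with DMSO and 215 and 218 CPM with GSK126 (0.95 ± 0.13, adjusted p = 2.74e-08, kept in all 4 fits). FASN, the fatty acid synthase, had 2091 and 1912 against 2623 and 3040 CPM (0.50 ± 0.09, adjusted p = 5.23e-04), and was not called without DMSO replicate 2 (0.0544), GSK126 replicate 1 (0.0586) or GSK126 replicate 2 (0.430). The desaturase FADS2 had 967 and 1047 against 1172 and 1414 CPM (0.36 ± 0.08, adjusted p = 0.00380), and was not called without DMSO replicate 1 (0.172) or GSK126 replicate 2 (0.245).

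No subunit of the complex that GSK126 inhibits passed the test in the fit of all 16 libraries. This did not hold in the fit without GSK126 replicate 1. With all libraries, 0 of the 13 tested PRC2 subunits were called by edgeR (3 at an unadjusted p under 0.05, 1 higher and 2 lower). DESeq2 called 0 and the fit with GC offsets 0, and the median log2 change was -0.15. EZH2, the target, had 127 and 135 CPM with DMSO and 109 and 100 CPM with GSK126 (-0.31 ± 0.14, adjusted p = 0.211). GSK126 acts on the enzyme and not on its RNA, so this is no check of the treatment. Its homologue EZH1 had 25.1 and 26.9 against 14.7 and 14.3 CPM (-0.83 ± 0.30, adjusted p = 0.107), and SUZ12, a core subunit, had 105 and 100 against 90.9 and 90.4 CPM (-0.18 ± 0.15, adjusted p = 0.598). For all 3 the GSK126 libraries were lower than both controls, while EED, the subunit that reads the mark, overlapped (21.6 and 26.9 against 23.8 and 23.1 CPM). Over the list, 6 of 13 subunits lay lower without overlap (46.2%, beside 21.5% of all tested genes) and 2 lay higher. The median GC content of the list was 42.0%, and with GC offsets its median log2 change was -0.0093. With these offsets EZH2, EZH1 and SUZ12 changed by -0.20, -0.88 and -0.0093.

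Chromatin regulators known to oppose Polycomb were examined as a list. Of 26 tested modifiers of H3K4, H3K27 and H3K36 and subunits of SWI/SNF remodellers, 6 were higher (23.1%) and 0 lower (median 0.11). Leaving out each library gave 2, 3, 5 and 5 higher genes, GC offsets gave 6, DESeq2 4 and the 4 libraries alone 3. KMT2D, which methylates H3K4 at enhancers, had 320 and 285 against 495 and 539 CPM (0.76 ± 0.11, adjusted p = 4.26e-07). CREBBP, an acetyltransferase of H3K27, had 354 and 351 against 476 and 540 CPM (0.52 ± 0.09, adjusted p = 7.06e-05). Both kept their calls without any 1 library. KDM6B, a demethylase of H3K27, had 152 and 181 against 224 and 264 CPM (0.55 ± 0.12, adjusted p = 0.00159) but was not called without DMSO replicate 1 (0.174) or GSK126 replicate 2 (0.0751). BAHCC1, which is outside that list and is known to bind the mark that PRC2 sets, had few reads in DMSO (2.09 and 1.68 against 16.1 and 14.3 CPM, 2.96 ± 0.56, adjusted p = 1.00e-04) and kept its call in all 4 fits.

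**Figure D3:**
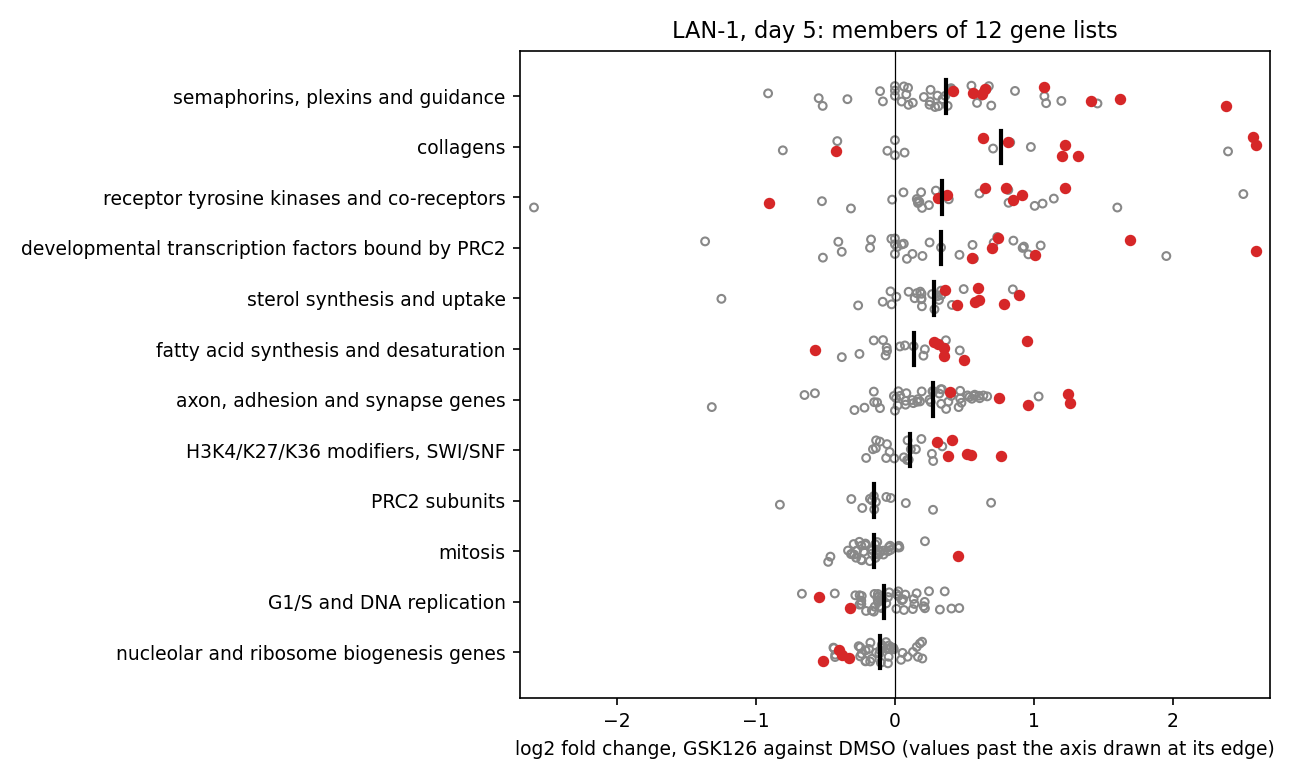
Fitted log2 fold change (horizontal axis) of each tested member of 12 gene lists (rows), with called genes in red, others as open grey circles and the list's median as a black bar. Fitted values of genes with almost no reads in 1 group depend on the prior count. Red points lie to the right in the guidance and sterol lists, and no PRC2 subunit is red. In the collagen list 7 red points lie to the right and 1 to the left.

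Receptor tyrosine kinases, which carry growth and survival signals, gave 7 higher (23.3%) and 1 lower of 30 tested, with a median of 0.34. The fits without 1 library gave 3, 2, 7 and 3 higher genes, GC offsets gave 7 and DESeq2 3. RET, the receptor for GDNF family ligands, had 89.8 and 79.0 CPM with DMSO and 154 and 151 CPM with GSK126 (0.85 ± 0.14, adjusted p = 5.89e-06). EGFR had 111 and 113 against 180 and 171 CPM (0.65 ± 0.13, adjusted p = 3.73e-04). Both kept their calls in all 4 fits. ALK, a receptor often mutated in neuroblastoma, had 15.3 and 14.3 against 31.5 and 39.7 CPM (1.22 ± 0.29, adjusted p = 0.00407), with the call lost without DMSO replicate 1 (0.0723), DMSO replicate 2 (0.0712) or GSK126 replicate 2 (0.0800). EPHA7, an ephrin receptor, was the 1 that fell, from 77.3 and 64.7 to 39.9 and 35.3 CPM (-0.91 ± 0.20, adjusted p = 0.00167), with the call lost without DMSO replicate 1 (0.110).

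Of 54 tested axon, adhesion and synapse genes 5 were higher (9.26%) and 0 lower (median 0.27), and none kept its call in all 4 fits. With 1 library left out 2, 0, 4 and 3 were higher, and with GC offsets 6 were higher and 1 lower. The libraries of the 2 groups were apart, with GSK126 higher, for 29 of the 54 (53.7%, beside 22.6% of all tested genes). Peripherin, PRPH, an intermediate filament of peripheral neurons outside that list, had 39.7 and 45.4 CPM with DMSO and 92.3 and 137 CPM with GSK126 (1.39 ± 0.18, adjusted p = 1.82e-09) and kept its call. The microtubule-binding MAP1B had 2185 and 1924 against 2886 and 2518 CPM (0.40 ± 0.08, adjusted p = 5.23e-04, lost without DMSO replicate 2 at 0.119). STMN2, a regulator of microtubules in axons, had 11.8 and 6.72 against 23.8 and 20.9 CPM (1.24 ± 0.34, adjusted p = 0.0185, lost without DMSO replicate 2 at 0.262 and GSK126 replicate 1 at 0.119). NEFM, a neurofilament, had 22.3 and 17.6 against 44.8 and 30.9 CPM (0.96 ± 0.25, adjusted p = 0.0109), lost without DMSO replicate 1 (0.0582), DMSO replicate 2 (0.170) or GSK126 replicate 1 (0.324).

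Of 24 tested adrenergic state genes, 3 were higher (12.5%) and 0 lower (median 0.17), and with GC offsets 1 was higher and 2 lower. Leaving out each library gave 0, 2, 3 and 1 higher genes. MYCN had 1695 and 1670 CPM with DMSO and 1775 and 1943 CPM with GSK126 (0.14 ± 0.08, adjusted p = 0.362). The core factor HAND2 (540 and 545 against 481 and 529 CPM, -0.11 ± 0.09, adjusted p = 0.611) was below DMSO in both libraries and not called. GATA3 overlapped between the groups (478 and 472 against 447 and 508 CPM). PHOX2A had 114 and 124 against 149 and 207 CPM (0.56 ± 0.13, adjusted p = 0.00479), with the call lost without DMSO replicate 1 (0.147) or GSK126 replicate 2 (0.360) and with GC offsets (0.102). The secretory granule protein CHGA had 249 and 260 against 339 and 353 CPM (0.44 ± 0.10, adjusted p = 0.00329), with the call lost without DMSO replicate 1 (0.0961) and with GC offsets (0.0705). MAOA, which breaks down monoamines and is outside that list, had 68.9 and 71.4 against 125 and 156 CPM (0.98 ± 0.15, adjusted p = 9.26e-07) and kept its call in all 4 fits.

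Developmental transcription factors that are classic Polycomb targets were mostly too low to test: of 89 listed, 35 passed the filter. Among these, 6 were higher (17.1%, beside 2.45% of all tested genes) and 0 lower. The median log2 change was 0.33, or 0.20 with GC offsets, and the median GC content was 55.0%. The fits without 1 library gave 2, 5, 6 and 5 higher genes, GC offsets gave 5 and DESeq2 3. A gene that passed only through the treated libraries had to differ, so the count is no measure of all 89. TBX20 had 73.1 and 66.4 against 113 and 123 CPM (0.74 ± 0.16, adjusted p = 8.74e-04) and kept its call in all 4 fits. HAND1 had 96.8 and 121 against 164 and 191 CPM (0.70 ± 0.13, adjusted p = 1.62e-04, lost without DMSO replicate 1 at 0.0894). BARX1 had 6.96 and 8.40 against 23.1 and 27.5 CPM (1.70 ± 0.38, adjusted p = 0.00170, lost without DMSO replicate 1 at 0.0843). EN1, a homeobox gene, had 3 and 0 counts with DMSO and 17 and 14 with GSK126, a ratio of 11.6 (95% counting interval 3.62 to 59.3, adjusted p = 8.74e-04, lost without DMSO replicate 2 at 0.0764).

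Other large rises rested on few counts. CDKN1A, an inhibitor of cyclin-dependent kinases, had 2 and 0 counts with DMSO and 11 and 10 with GSK126, a ratio of 11.8 (2.88 to 104, adjusted p = 0.00179, lost without DMSO replicate 2 at 0.0850). It was the only called gene of 25 tested p53 targets (4.0%, beside 2.45% of all tested genes called higher). IGFBP3 had 1 and 1 against 9 and 11 counts, a ratio of 11.2 (2.73 to 99.1, adjusted p = 0.00376), with the call lost without DMSO replicate 1 (0.0996), DMSO replicate 2 (0.0573) or GSK126 replicate 2 (0.0974). CRABP2, which carries retinoic acid in the cell, had 1 and 0 against 11 and 6 counts, a ratio of 19.1 (2.99 to 798, adjusted p = 0.00296, lost without DMSO replicate 2 at 0.0837). The retinoid partner receptor RXRA had 32.7 and 35.3 against 65.8 and 63.9 CPM (0.94 ± 0.20, adjusted p = 0.00151, lost without DMSO replicate 1 at 0.0711). These 2 were the called genes of 8 tested retinoid genes (25.0%, beside 2.45% of all tested genes called higher). Intervals cover counting error only. Genes with so few DMSO counts may have passed the filter only through libraries where they were high, and such a gene had to differ.

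The hypoxia factor EPAS1 had 6.27 and 5.88 CPM with DMSO and 28.0 and 20.9 CPM with GSK126 (2.03 ± 0.37, adjusted p = 4.29e-05), kept in all 4 fits. The glycolytic enzyme PFKP had 11.1 and 16.0 against 28.7 and 33.1 CPM (1.18 ± 0.30, adjusted p = 0.00750), lost without DMSO replicate 1 (0.241) or GSK126 replicate 2 (0.0846). PDK1, a kinase that inhibits pyruvate dehydrogenase, fell from 189 and 197 to 113 and 115 CPM (-0.77 ± 0.13, adjusted p = 1.94e-05), kept in all 4 fits. These were the called genes of 41 tested glycolysis and hypoxia genes, with 4.88% higher and 2.44% lower, beside 2.45% and 1.21% of all tested genes. With GC offsets 4 of the 41 were higher. Of 74 tested respiratory chain genes 0 were called by edgeR with all libraries (5 higher and 5 lower at an unadjusted p under 0.05) or by DESeq2. With GC offsets 1 was higher, and some were called in the fit without GSK126 replicate 1. The lysosomal protease CTSD had 98.2 and 103 against 139 and 186 CPM (0.67 ± 0.14, adjusted p = 0.00127, lost without DMSO replicate 1 at 0.0663 and GSK126 replicate 2 at 0.129).

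Nucleolar genes, which build ribosomes, gave falls. Of 43 tested nucleolar genes 0 were higher and 4 lower (9.3%, beside 1.21% of all tested genes; median -0.11). With 1 library left out 2, 1, 6 and 0 were lower, with GC offsets 3 and by DESeq2 3. NOP58, a core protein of small nucleolar RNPs, fell from 235 and 257 to 186 and 151 CPM (-0.52 ± 0.12, adjusted p = 0.00209, lost without DMSO replicate 2 at 0.0764 and GSK126 replicate 2 at 0.0944). DDX21, a helicase, fell from 615 and 598 to 518 and 401 CPM (-0.38 ± 0.09, adjusted p = 0.00479, lost without DMSO replicate 1 at 0.0937 and GSK126 replicate 2 at 0.314). NPM1 fell from 1636 and 1724 to 1531 and 1115 CPM (-0.33 ± 0.08, adjusted p = 0.00750), lost without DMSO replicate 2 (0.148) or GSK126 replicate 2 (0.583) and with GC offsets (0.261). In all 3 the lower value belonged to GSK126 replicate 2, and their GC content is 37.9% to 41.5%. The median GC content of the whole list was 47.5%, beside 47.6% over all tested genes, and its median log2 change with GC offsets was -0.16. The part of GC content in these falls was not tested.

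Cytosolic ribosomal proteins went the other way, with 6 of 76 higher (7.89%) and 0 lower (median 0.11). Leaving out each library gave 0, 2, 23 and 0 higher genes, GC offsets gave 6 and DESeq2 2. RPL18 had 236 and 241 against 282 and 378 CPM (0.44 ± 0.11, adjusted p = 0.00538), lost without DMSO replicate 1 (0.104), DMSO replicate 2 (0.0643) or GSK126 replicate 2 (0.414). RPS19 had 237 and 265 against 295 and 374 CPM (0.40 ± 0.11, adjusted p = 0.0136), lost without DMSO replicate 1 (0.294) or GSK126 replicate 2 (0.412) and with GC offsets (0.0589).

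Of 46 tested genes of G1/S and DNA replication, 2 were lower (4.35%), none without any 1 of the libraries and 2 with GC offsets. The phosphatase CDC25A fell from 126 and 131 to 88.1 and 87.1 CPM (-0.55 ± 0.15, adjusted p = 0.0126), with an adjusted p of 0.0554 to 0.116 without each of the 4 libraries. The replication clamp PCNA fell from 469 and 520 to 391 and 397 CPM (-0.33 ± 0.10, adjusted p = 0.0347), with 0.0702 to 0.327 without each of the 4. Of 40 mitosis genes, 1 was higher (2.5%, beside 2.45% of all tested genes) and 0 lower by edgeR, with 3 lower with GC offsets. In both GSK126 libraries 23 lay lower (57.5%, beside 21.5% of all tested genes), with a list median of -0.15. The median GC content of this list was 42.7%, beside 47.6% over all tested genes, and its part in that count was not tested. The fits without 1 library gave 0, 0, 5 and 1 lower genes. The called one was MKI67, the proliferation antigen, at 819 and 726 against 1042 and 1082 CPM (0.46 ± 0.09, adjusted p = 1.35e-04, lost without DMSO replicate 2 at 0.0573).

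Of 38 tested genes of amino acid and unfolded protein stress 3 were lower (7.89%), 1 with GC offsets, 0 by DESeq2 and 1, 0, 3 and 0 with 1 library left out, among them the serine synthesis enzyme PSAT1 (237 and 279 against 192 and 198 CPM, -0.40 ± 0.12, adjusted p = 0.0269) and the mitochondrial folate enzyme MTHFD2 (483 and 465 against 413 and 331 CPM, -0.33 ± 0.10, adjusted p = 0.0284). PSAT1 lost its call without DMSO replicate 2 (0.357), GSK126 replicate 1 (0.103) or GSK126 replicate 2 (0.0802) and with GC offsets (0.0550). MTHFD2 lost it without DMSO replicate 1 (0.239), DMSO replicate 2 (0.104) or GSK126 replicate 2 (0.470) and with GC offsets (0.0742). Of 15 tested heat shock genes, 1 was called higher and 1 lower (6.67% each, beside 2.45% and 1.21% of all tested genes). The median was -0.21 (-0.14 with GC offsets). In 10 of them both GSK126 libraries lay below both controls (66.7%, beside 21.5% of all tested genes), and in 1 above. HSPB1, a small chaperone, was the 1 called higher (35.5 and 31.9 against 54.6 and 80.4 CPM, 0.94 ± 0.20, adjusted p = 0.00127). Its call was lost without GSK126 replicate 2. HSP90AA1, the inducible cytosolic chaperone, was lower (2089 and 2205 against 1782 and 1631 CPM, -0.33 ± 0.08, adjusted p = 0.00482, lost without DMSO replicate 2 at 0.120 and GSK126 replicate 2 at 0.0751).

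The 6 falls that survived every left-out library were SPCS3, CEP44, PDK1, DEK, HDAC2 and PTGES3. SPCS3, a subunit of the signal peptidase, fell from 1016 and 1076 CPM to 686 and 573 CPM (-0.72 ± 0.09, adjusted p = 3.62e-10). CEP44, a centrosome protein, fell from 396 and 410 to 276 and 222 CPM (-0.67 ± 0.11, adjusted p = 2.68e-06). DEK, a chromatin protein, fell from 487 and 494 to 365 and 268 CPM (-0.61 ± 0.10, adjusted p = 7.73e-06). The groups were apart for all 3, and replicate 2 was the lower GSK126 library. The histone deacetylase HDAC2 fell from 733 and 762 to 583 and 491 CPM (-0.47 ± 0.09, adjusted p = 1.62e-04), and the HSP90 co-chaperone PTGES3 from 536 and 545 to 403 and 369 CPM (-0.48 ± 0.09, adjusted p = 2.39e-04). The GC content of the 6 is 34.6% to 42.9%, below the 47.6% of all tested genes. All 6 were called with GC offsets, at a smaller size (SPCS3 -0.48, DEK -0.35), while DEK and HDAC2 were not called with GC offsets and without GSK126 replicate 2 together, a setting chosen after the data were seen.

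Among the largest falls, COQ3, an enzyme of ubiquinone synthesis, had 13.9 and 15.1 CPM with DMSO and 4.20 and 5.51 CPM with GSK126 (-1.60 ± 0.48, adjusted p = 0.0336). Its adjusted p was 0.103 to 0.193 without each of the 4 libraries and 0.0502 with GC offsets. The zinc finger gene ZNF300 had 59.2 and 53.8 against 34.3 and 27.5 CPM (-0.84 ± 0.22, adjusted p = 0.00968), lost without DMSO replicate 1 (0.161) or GSK126 replicate 2 (0.130).

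Further genes that rose in every fit without 1 library were the teneurin TENM4 (75.2 and 79.8 against 165 and 156 CPM, 1.06 ± 0.15, adjusted p = 8.45e-08), the homeobox factor ZFHX3 (197 and 181 against 326 and 320 CPM, 0.77 ± 0.11, adjusted p = 2.80e-07) and the neuronal elongation factor EEF1A2 (360 and 377 against 540 and 627 CPM, 0.66 ± 0.10, adjusted p = 3.81e-07). The imprinted long RNA KCNQ1OT1 had 39.7 and 28.6 against 93.7 and 74.9 CPM (1.31 ± 0.20, adjusted p = 5.27e-07), and CDR1 had 184 and 193 against 290 and 426 CPM (0.90 ± 0.12, adjusted p = 1.88e-08). The strand setting of the counting was not given, so reads of KCNQ1OT1 and KCNQ1, of CDR1 and LINC00632, of PRUNE2 and PCA3, of SULF2 and NCOA3, of EGFR and its antisense gene, and of the other overlapping pairs cannot be told apart.

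The effect was larger at day 5 than at day 2 for a set of genes. At day 2, 18 genes were higher and 0 lower in LAN-1 (0.152% of those tested, 335 lower at an unadjusted p under 0.05 by edgeR), against DMSO libraries of that day. Of the 291 genes higher at day 5, 10 were also called higher at day 2, and 207 (71.1%) had a positive change there, beside 49.6% of all tested genes. The difference between the days, tested as an interaction, was called for 64 genes (0.539%), 51 of them larger at day 5. AHNAK changed by -0.08 ± 0.09 at day 2 and by 1.37 at day 5 (difference 1.46, adjusted p = 4.99e-17). PLXNA4 changed by 0.17 and 2.38 (difference 2.21, adjusted p = 9.04e-05). IGFBP5 (difference 1.36, adjusted p = 3.21e-05), KIF26B (1.35, 3.23e-05), ZFHX3 (0.95, 9.04e-05) and KMT2D (0.97, 3.36e-05) also grew, and all of these kept the difference without any 1 of the LAN-1 day 5 libraries. PLXNA2 had a difference of 1.20 (adjusted p = 9.04e-05, 0.0524 without DMSO replicate 1).

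Several genes of this set have long transcripts: 20686 bases for KMT2D, 18761 for AHNAK, 14796 for the ubiquitin ligase HUWE1 (difference 0.78, adjusted p = 1.66e-05) and 12716 for MKI67 (0.68, adjusted p = 1.55e-04), beside a median of 4114 over all tested genes. The ratio to DMSO had a correlation across genes with log2 transcript length of 0.139 in GSK126 replicate 1 and -0.0560 in replicate 2, and its part in these differences was not tested. The genes COL6A1 (0.92 at day 2 and 1.22 at day 5), COL2A1 (0.55 and 0.64), ACSS2 (0.78 and 0.95) and PRPH (0.79 and 1.39) were called at both days, and their difference between days was not (adjusted p = 0.361 to 0.906).

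**Figure D4:**
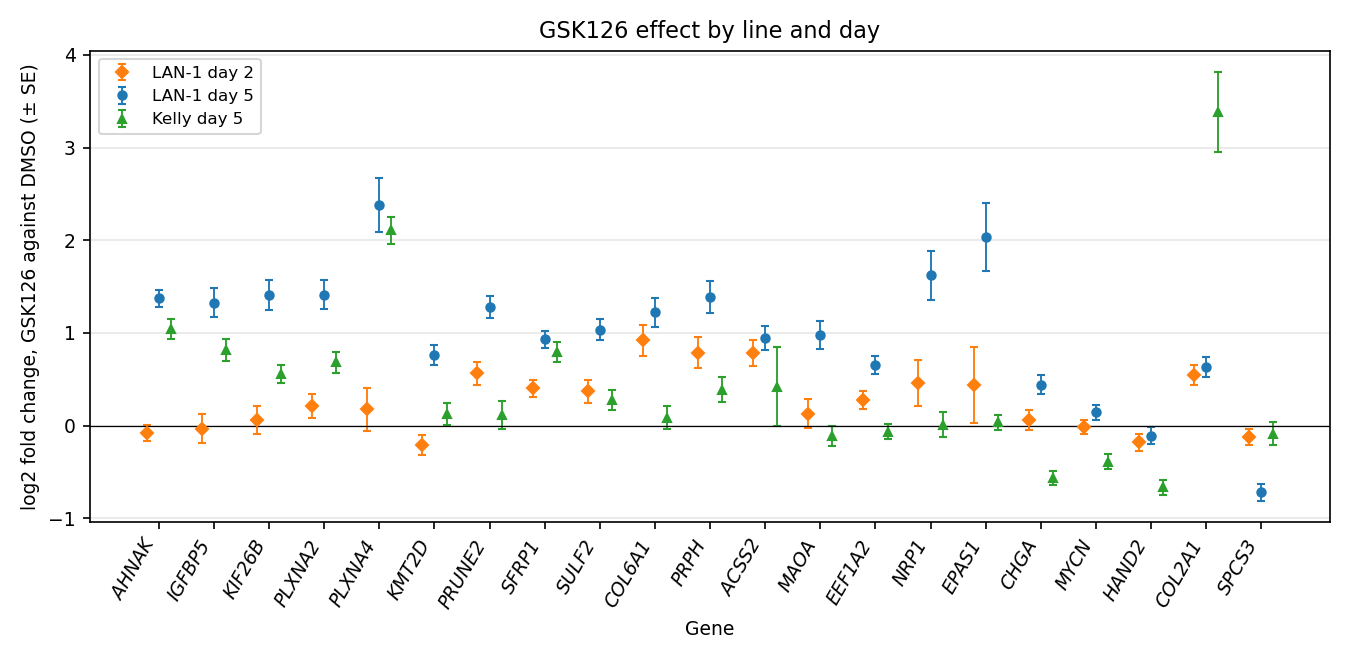
Log2 fold change of GSK126 against DMSO (vertical axis, bars are ± SE, n = 2 per group) for 21 genes (horizontal axis) in LAN-1 at day 2, LAN-1 at day 5 and Kelly at day 5. Each SE comes from the fit of all 16 libraries. AHNAK, IGFBP5, KIF26B and KMT2D are near 0 in LAN-1 at day 2 and high at day 5, and NRP1 and EPAS1 are near 0 in Kelly.

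The response of LAN-1 and of Kelly at day 5, each against its own DMSO libraries, shared part of its genes. Of the 291 genes higher in LAN-1, 64 were called higher and 5 lower in Kelly, where 391 genes were higher (3.3%) and 190 lower (1.6%). Of the 143 lower genes, 8 were called lower in Kelly. AHNAK (1.04 ± 0.11 in Kelly), PLXNA4 (2.11 ± 0.15), SFRP1 (0.79 ± 0.11), TENM4 (1.04) and RET (1.25) were called in both lines, and CEP44 fell in both (-0.83 in Kelly). Their difference between lines was not called, with adjusted p of 0.262 to 0.999, which does not show that the effects are the same.

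A difference between the lines was called for 220 genes (1.85%). NRP1 changed by 1.62 in LAN-1 and 0.01 in Kelly (difference 1.61, adjusted p = 1.26e-04). EPAS1 changed by 2.03 and 0.03 (difference 2.00, adjusted p = 1.84e-04), and COL6A1 by 1.22 and 0.08 (1.14, adjusted p = 6.40e-05). MAOA (0.98 and -0.11, difference 1.09, adjusted p = 1.59e-05), PRUNE2 (1.27 and 0.11, 1.16, 1.83e-05) and EEF1A2 (0.66 and -0.07, 0.72, 4.52e-05) followed the same order. COL2A1 went the other way, with 0.64 in LAN-1 and 3.38 in Kelly (-2.74, adjusted p = 1.67e-05). CHGA rose in LAN-1 and fell in Kelly (0.44 and -0.57, difference 1.01, adjusted p = 3.03e-09), and IGFBP2, a further binder of insulin-like growth factors, did the same (0.66 and -0.60, difference 1.26, adjusted p = 4.13e-05), where its LAN-1 call was lost without DMSO replicate 1 (0.348) or GSK126 replicate 2 (0.127). MYCN (0.14 and -0.39, 0.53, adjusted p = 0.00118) and HAND2 (-0.11 and -0.67, 0.56, adjusted p = 0.00293) fell in Kelly and were not called in LAN-1. All 11 of these differences were called without each 1 of the LAN-1 day 5 libraries, and libraries of day 2 or of Kelly were not left out.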

How the data were processed

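The deposited table held whole-read counts per gene symbol for all 16 libraries, 1 column each, with no normalization, per the file headers and the labels. The submitters' processing notes name the build GRCh37, also listed as hg19, and the tools featureCounts, TopHat2 and FastQC. Versions, annotation and strand setting are not given in the sources used here. Counts were fitted with edgeR 4.0.16 in R 4.3.3: filterByExpr at a minimum count of 10 left 11863 of 25728 symbols, libraries were scaled by TMM, and a robust quasi-likelihood model gave each of the 8 groups its own mean (8 residual degrees of freedom, common biological coefficient of variation 5.31%). P-values were adjusted by Benjamini-Hochberg over all tested genes, with calls under 0.05. CPM are counts per 1000000 of the TMM-scaled total. Log2 ratios of single libraries use a pseudocount of 2 CPM. Positions, GC content and length come from GENCODE 44 lifted to GRCh37, which gave a GC value for 98.6% of the tested genes. In a group with 0 counts, the fold was taken against a floor of 3 counts over the group. With 1 to 3 counts the ratio has an exact 95% interval.

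Named genes followed a rule: fixed genes, the largest non-overlapping changes (at least 5 CPM in either group), the genes firmest to a left-out library, up to 4 called and 2 uncalled genes per list, and the genes with the clearest differences between days or lines. IDI1 was added after its values were seen. SREBF2 was named beyond the limit of 4 called genes per list. Among the called sterol genes, EBP and MVK had a smaller adjusted p by edgeR than SREBF2. Not every gene the rule takes is printed. The gene lists, members and tests were chosen with earlier results of these data known. Alternatives were RLE scaling, no filter, a minimum count of 30, 8 or 4 libraries alone, a replicate block, GC offsets, DESeq2 1.42.0 and each library left out. The scripts were tested on simulated data.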

Additional observations from a re-analysis of the deposited data

Results flagged for a closer look

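The named genes were checked for effects that differ between days or between lines by a test of the difference itself (interaction in edgeR's quasi-likelihood fit, adjusted p under 0.05 over all genes). Genes were named partly for such differences, so their number is no estimate of how common they are.

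The log2 effect of GSK126 in LAN-1 at day 5 exceeded that at day 2, with the difference in brackets, for PLXNA4 (2.21), AHNAK (1.46), IGFBP5 (1.36), KIF26B (1.35), KCNQ1OT1 (1.26), PLXNA2 (1.20), IGFBP2 (0.98), KMT2D (0.97), ZFHX3 (0.95), MAOA (0.85), EGFR (0.83), HUWE1 (0.78), TENM4 (0.78), UNC5B (0.77), PRUNE2 (0.71), SRRM2 (0.69), CREBBP (0.68), MKI67 (0.68), SULF2 (0.67), FN1 (0.58), SFRP1 (0.53), MAP1B (0.49). It lay below that at day 2 for COQ3 (-2.52), ZNF300 (-1.15), SPCS3 (-0.60), PTGES3 (-0.60) and IDI1 (-0.68). All adjusted p were under 0.05, from 4.99e-17 (AHNAK) to 0.0455 (TENM4). Of these 27 day differences 11 were called in all 4 fits without 1 LAN-1 day 5 library, COQ3 in 0 of them and TENM4, MAOA and ZNF300 in 1. With GC offsets 22 were called, all but IDI1 (0.0513), TENM4 (0.0579), ZNF300 (0.0594), SPCS3 (0.0806) and IGFBP2 (0.0832).

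The log2 effect at day 5 in LAN-1 exceeded that in Kelly for BAHCC1 (2.46), EPAS1 (2.00), SEMA5A (1.83), NRP1 (1.61), PFKP (1.53), IGFBP2 (1.26), HSPB1 (1.22), PRUNE2 (1.16), COL6A1 (1.14), MAOA (1.09), RXRA (1.03), CHGA (1.01), PRPH (1.00), KIF26B (0.85), SULF2 (0.76), PLXNA2 (0.73), PHOX2A (0.72), EEF1A2 (0.72), CDR1 (0.67), ZFHX3 (0.66), KMT2D (0.64), FASN (0.57), HAND2 (0.56), MAP1B (0.53), MYCN (0.53), RPL18 (0.50), MKI67 (0.43), HUWE1 (0.43), SRRM2 (0.42). It lay below that in Kelly for COL2A1 (-2.74), SKIL (-0.71), SPCS3 (-0.63), DEK (-0.53), FN1 (-0.52). Adjusted p ran from 3.03e-09 (CHGA) to 0.0442 (SEMA5A). The difference was also called for CDKN1A (adjusted p = 0.0136), whose size is not given because its 2 counts over the DMSO group make the fitted value depend on the prior count. Of these 35 line differences 14 were called in all 4 fits without 1 LAN-1 day 5 library, and DEK, FASN and RPL18 in 1. With GC offsets 25 were called, all but KMT2D, FASN, RPL18, SKIL, SRRM2, PHOX2A, SPCS3, FN1, CDR1 and DEK (0.0585 for KMT2D to 0.457 for DEK).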

How the results depend on the processing

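The pairs of libraries are limited by depth: a gene with 0 counts may have had up to 3, which is 2.09 to 3.31 CPM in these libraries. The counts of genes called in LAN-1 at day 5 (291 higher, 143 lower) moved with the processing. DESeq2 called 112 higher and 42 lower. GC offsets gave 84 lower, and the 4 libraries alone 62 lower. GC offsets without GSK126 replicate 2, chosen after the data were seen, gave 169 higher and 34 lower. Leaving out 1 library gave 99 to 373 higher and 20 to 362 lower. The day difference (64) was 28 by DESeq2 and 24 to 223 with 1 library left out, and the line difference (220) was 73 by DESeq2, 145 with GC offsets without GSK126 replicate 2, and 128 to 479 with 1 library left out. RLE scaling, no filter and a minimum of 30 kept these counts within 1.5 times, as did the 8 LAN-1 libraries alone, which give no line difference.

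EED, GATA3 and IDI1, all uncalled, changed sign. EED was 0.25 with GC offsets, 0.29 with GC offsets and the block, -0.19 to 0.12 with 1 library left out and 0.16 with GC offsets without GSK126 replicate 2. GATA3 was 0.0095 (RLE), 0.0022 (no filter), 0.011 (minimum 30 and DESeq2), 0.0060 (8 libraries), 0.0068 (4 libraries) and -0.089 to 0.092 with 1 library left out. IDI1 was 0.025 with GC offsets, 0.040 with GC offsets and the block, and -0.21 to 0.023 with 1 library left out. The cause was not tested.

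Same-numbered deviations had little correlation across 8429 genes (-0.076 to 0.067 over the 4 pairs of groups, 0.067 in LAN-1 at day 5). Counting noise lowers such a correlation, so this check cannot exclude pairing. The replicate block gave 281 higher and 143 lower, 65 day and 222 line differences, and with GC offsets 250 higher and 76 lower.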
